A study of Mus musculus with 12 samples.

Results

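Interleukins and interleukin receptors were followed across the 4 groups of a mouse skin RNA-seq study. Members were the protein-coding genes of the GENCODE M21 annotation whose symbol starts with Il and a digit. Of 82 such genes, 80 had 10 or more counts summed over the 12 libraries, among 53379 genes in the files, while Il3 had 9 counts and Il9 had 7. By role, 38 members were ligands or ligand-like genes, including antagonists and the enzyme Il4i1, and 42 were receptors, decoy receptors or binding proteins. The name rule leaves out partner chains with other names, such as Csf2rb, Osmr and Crlf2.

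Whole skin was taken from mice aged 3 months, with strain labels naming C57BL/6 and B6D2, and each group held 3 libraries. Nf1-KO injured skin came from Prss56Cre,R26tdTom,Nf1flox/- mice at 14 days after wounding, and control injured skin from Prss56Cre,R26tdTom mice at the same time. Nf1-KO uninjured and control uninjured skin was intact skin of the same genotypes. All 4 groups therefore carry the Cre driver and the tdTomato reporter. Cre follows Prss56, a gene of boundary cap cells at the nerve roots, so the floxed allele is removed in that lineage by design, whereas the other Nf1 allele, as the genotype is written, is inactive in every cell of the Nf1-KO mice and intact in controls. Most cells in whole skin lie outside that lineage. The labels do not say that libraries of a group came from separate animals, so p-values measure the spread between these samples, which may be technical.

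Interleukins are secreted proteins by which immune, epithelial and stromal cells signal to each other. Most bind a receptor made of a ligand-specific chain and a shared signalling chain, and IL-1 family and IL-17 receptors act through NF-kB adaptors while most others act through Janus kinases and STAT factors. Decoy receptors, receptor antagonists and binding proteins hold several of these ligands in check. In skin, keratinocytes store IL-1 alpha and IL-36 cytokines and carry receptors for IL-17, IL-20 and IL-22, through which lymphocytes and myeloid cells act on the epidermis.

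Library totals ran from 12681653 to 16809687 counts in injured skin and from 8817013 to 15521143 counts in uninjured skin. Nf1 itself did not separate the genotypes, with 8.14 to 14.1 raw CPM (counts scaled to library size) in Nf1-KO injured skin against 8.98 to 14.7 in control injured skin, and 8.96 to 11 in Nf1-KO uninjured skin against 9.41 to 17.2 in control uninjured skin. Injured and uninjured libraries also differed in sex-linked transcripts. Xist had 436 to 627 raw CPM in injured skin against 0.709 to 2.95 in uninjured skin, and Ddx3y had 0 to 0.0595 against 68.2 to 93.3, so that injury and sex cannot be told apart here, which bears most directly on the X-linked members Il13ra1, Il2rg, Il13ra2, Il1rapl1 and Il1rapl2. Genes of ribosomal RNA-like type took 1.75 to 4.21% of counts in injured skin against 0.931 to 2.26% in uninjured skin. Counts at olfactory and vomeronasal receptor genes, which skin should barely transcribe, reached 0.00223 to 0.0530 raw CPM per kb of exon in injured skin against 0.0942 to 0.331 in uninjured skin. Because the tissue was sequenced in bulk, fewer cells of a type and less RNA per cell cannot be told apart. The kit does not mark strand, and 23 of the 80 members share exon bases with another gene.

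The promoters of 3 members that moved in both injury comparisons are shown so that the DNA upstream of genes described below can be read. They were those with the smallest p in control skin among members called in both comparisons that have a single RefSeq start window lying outside the M21 gene, with up to 2 risers and 2 fallers allowed, and 1 riser qualified. Each is the 250 bases before the RefSeq start in GRCm38.p6, written 5′ to 3′ on the gene's strand, with motif matches in capitals. Il1b lies at chr2:129371140-129371389 on the minus strand and its capitals mark a TATA box from 31 to 26 bases before the start. Il22ra1 lies at chr4:135727909-135728158 on the plus strand. It has an AP-1 pattern match, read as TGAATCA, from 222 to 216 bases before the start and NF-kB pattern matches from 156 to 147 and from 37 to 28. Il12rb2 lies at chr6:67376189-67376438 on the minus strand, with a STAT match from 123 to 115 bases before the start.
Il1b: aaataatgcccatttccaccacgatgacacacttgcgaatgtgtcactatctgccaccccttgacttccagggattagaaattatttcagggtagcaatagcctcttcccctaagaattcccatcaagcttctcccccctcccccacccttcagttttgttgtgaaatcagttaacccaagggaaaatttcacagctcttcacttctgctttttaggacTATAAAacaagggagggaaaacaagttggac
Il22ra1: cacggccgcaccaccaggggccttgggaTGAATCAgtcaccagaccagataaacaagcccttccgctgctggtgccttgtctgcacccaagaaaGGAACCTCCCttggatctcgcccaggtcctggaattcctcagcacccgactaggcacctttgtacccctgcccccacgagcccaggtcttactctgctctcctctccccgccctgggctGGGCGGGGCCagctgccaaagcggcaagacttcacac
Il12rb2: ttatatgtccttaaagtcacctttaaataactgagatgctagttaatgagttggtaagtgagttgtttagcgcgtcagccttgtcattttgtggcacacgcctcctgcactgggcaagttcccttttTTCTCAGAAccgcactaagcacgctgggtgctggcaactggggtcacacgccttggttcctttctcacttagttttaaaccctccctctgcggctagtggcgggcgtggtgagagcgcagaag

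The motifs searched on both strands were TATAAA for the TATA box, TGANTCA for AP-1, TTCNNNGAA for STAT and GGGNNNNNCC for NF-kB. N stands for any base, so the AP-1 pattern takes any middle letter. The NF-kB pattern also takes in GC boxes such as the match at 37 bases in Il22ra1. Of 32851 RefSeq windows of that length, 12.4% held TATAAA, 6.75% TGANTCA, 7.02% TTCNNNGAA and 45.8% GGGNNNNNCC. The 78 windows of the 63 members with an entry held them in 16.7%, 16.7%, 10.3% and 41.0%. Among the 20 windows of 15 members lower in both injury comparisons, 25.0% held TGANTCA, 20% TTCNNNGAA and 55.0% GGGNNNNNCC. Of the 8 windows of 6 members higher in both, 12.5% held TATAAA, which is the Il1b window above, and none held TGANTCA or TTCNNNGAA. These matches are letters in a window, not measured binding.

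More members were lower than higher in injured skin, in both genotypes. Of the 69 members with enough counts for edgeR, 14 rose and 22 fell in Nf1-KO skin, where 37.4% of the 23635 genes tested were called at a Benjamini-Hochberg adjusted p under 0.05, 19.1% higher and 18.4% lower. In control skin 9 members rose and 24 fell, beside 55.3% of all genes called, 22.8% higher and 32.5% lower. The members called made up 52.2% of those tested in Nf1-KO skin and 47.8% in control skin, beside the 37.4% and 55.3% of all genes. Groups did not overlap for 62.3% of members in each genotype, where 51.6% of all genes did not in Nf1-KO skin and 62.4% in control skin. The median log2 fold change of the 69 members was -0.56 in Nf1-KO skin and -0.42 in control skin, against -0.09 in Nf1-KO skin and -0.21 in control skin for all genes. This contrast depended on which genes were tested. With no filter beyond 1 count the members' median was -0.74 in Nf1-KO skin against -0.60 for all genes, and -0.46 in control skin against -1.41 for all genes. With DESeq2 it was -0.89 in Nf1-KO skin against -0.77, and -0.70 in control skin against -1.11, so in control skin the members then lay above all genes. All members together took 0.126 to 0.190% of the counts in injured libraries against 0.248 to 0.335% in uninjured ones, and these ranges did not overlap.

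Both injury comparisons called 25 members, all in the same direction, which is 69.4% of the Nf1-KO calls and 75.8% of the control calls. They made up 36.2% of the members tested, beside 32.0% of all genes called in both. For all genes, 85.4% of the Nf1-KO calls and 57.8% of the control calls were shared, and 7554 of these 7557 genes went the same way, so a shared direction is not particular to the members. The 7 that rose in both were Il1b, Il1rl1, Il18bp, Il3ra, Il4ra, Il11ra1 and Il17b. The 18 that fell in both were the ligands Il1a, Il15 and Il34, the antagonist Il1rn, and the receptors or decoys Il1r2, Il1rap, Il1rapl2, Il18r1, Il6ra, Il12rb2, Il13ra1, Il15ra, Il17rc, Il20ra, Il20rb, Il22ra1, Il22ra2 and Il31ra. Split by role, receptors and decoys gave 9 risers and 15 fallers in Nf1-KO skin and 5 risers and 18 fallers in control skin, of 39 tested. Ligands gave 5 risers and 7 fallers in Nf1-KO skin and 4 risers and 6 fallers in control skin, of 30 tested. The difference between the injury responses was called for 0 members, so a call in only 1 of the genotypes does not show that the genotypes differ. Several members kept their control call but moved by over 1.5 times once ribosomal RNA-like counts were a covariate. Their control log2 fold changes were then -3.15 for Il22ra2, -2.74 for Il22ra1, -2.44 for Il20ra, -2.00 for Il6ra, -1.39 for Il34, -1.27 for Il1rap, -1.18 for Il15, 1.46 for Il3ra and 2.00 for Il11ra1. In Nf1-KO skin that covariate gave -4.40 for Il22ra2 and -1.70 for Il1a.

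**Figure D1:**
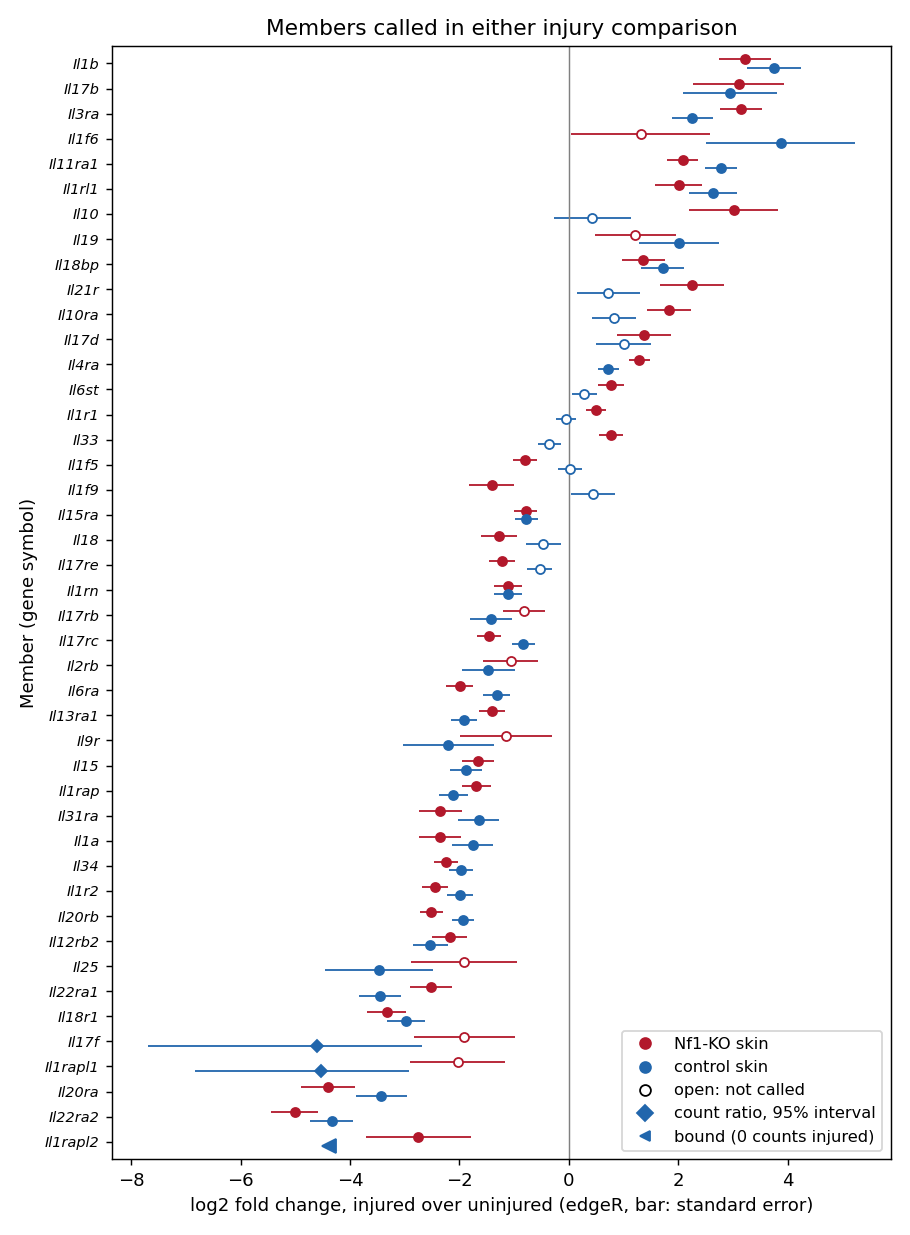
Log2 fold change of injured over uninjured skin for the 44 members called in either genotype, by gene symbol, with Nf1-KO skin in red above control skin in blue, bars showing the standard error and open points members not called. Diamonds give count ratios with their 95% counting interval for 2 members with 2 and 3 counts in control injured skin, and the triangle is a bound of 20.9-fold for Il1rapl2, which had 0 counts there. Filled points of both colours lay above 0 for 7 members and below 0 for 18.

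Among the IL-1 family ligands, Il1b rose while Il1a and the antagonist Il1rn fell in both genotypes. Il1b (chr2:129364570-129371139, minus strand), the inflammatory cytokine that myeloid cells make, had 10.8, 5.71 and 8.26 CPM in Nf1-KO injured skin, against 0.896, 0.919 and 0.813 CPM in Nf1-KO uninjured skin, where CPM from here on are TMM-normalised. Control injured skin had 10.5, 15.5 and 4.88 CPM of Il1b, against 0.376, 0.614 and 1.20 CPM in control uninjured skin. Every injured library lay above every uninjured one, and Il1b rose 9.32-fold in Nf1-KO skin (log2 fold change 3.22, SE 0.48, adjusted p = 0.000108, edgeR) and 13.5-fold in control skin (log2 fold change 3.75, SE 0.49, adjusted p = 3.33e-05, edgeR). The control fold change was 4.45 on the log2 scale without control uninjured replicate 3, and 3.09 without replicates 1 and 2. Not every control uninjured library held Il1b above the level of the olfactory and vomeronasal receptors.

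Il1a (chr2:129299610-129309972, minus strand), the IL-1 alpha alarmin that keratinocytes store, had 4.23, 9.81 and 3.36 CPM in Nf1-KO injured skin, against 25.6, 36.3 and 27.4 CPM in Nf1-KO uninjured skin. In control skin Il1a stood at 5.33, 13.9 and 13.0 CPM after injury, against 36.1, 41.4 and 32.1 CPM without injury. All injured libraries were lower than all uninjured ones, and Il1a fell 5.11-fold in Nf1-KO skin (log2 fold change -2.35, SE 0.39, adjusted p = 0.000365, edgeR) and 3.39-fold in control skin (log2 fold change -1.76, SE 0.38, adjusted p = 0.00150, edgeR). Without Nf1-KO injured replicate 2, the highest of its group, the Nf1-KO log2 fold change was -2.96. The control call was lost once the share of ribosomal RNA-like counts entered the model (log2 -0.43, adjusted p = 0.309, edgeR) and without control uninjured replicates 1 and 2 (adjusted p = 0.0505).

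Il1rn encodes the secreted antagonist that blocks the IL-1 receptor. Its levels were 51.5, 101 and 53.2 CPM in Nf1-KO injured skin, against 153, 159.8 and 133 CPM in Nf1-KO uninjured skin. Il1rn had 78.4, 111 and 90.7 CPM in control injured skin, against 158, 209 and 236 CPM in control uninjured skin. Injured libraries were lower throughout, and Il1rn fell 2.17-fold in Nf1-KO skin (log2 fold change -1.12, SE 0.25, adjusted p = 0.00319, edgeR) and 2.15-fold in control skin (log2 fold change -1.11, SE 0.25, adjusted p = 0.00198, edgeR). The control call ended with the ribosomal RNA-like covariate (log2 -0.29, adjusted p = 0.424, edgeR).

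The balance of the IL-1 ligands differed with injury, a comparison chosen after the values were seen. Of the counts for Il1a and Il1b together, Il1a made up 28.2, 63.2 and 28.9% in Nf1-KO injured skin, against 96.6, 97.5 and 97.1% in Nf1-KO uninjured skin. In control skin the share was 33.7, 47.3 and 72.7% after injury, against 99.0, 98.5 and 96.4% without injury. The injured libraries varied widely yet none reached an uninjured one. That had to follow from the levels above, with Il1b higher and Il1a lower in every injured library. The exact 2-sided permutation p of each difference was therefore fixed at 0.1, the smallest that 3 against 3 allows, and adds no separate support. The libraries carry no strand, and exons of Il1a share bases with the antisense gene Gm14023, which held 701 counts over all libraries beside 3212 for Il1a.

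**Figure D2:**
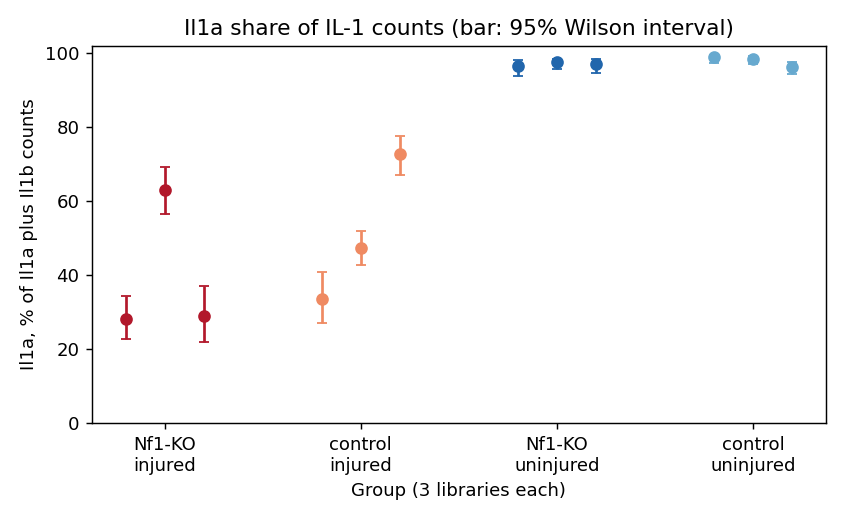
Il1a as a percentage of Il1a plus Il1b counts in each of the 12 libraries by group, with bars giving the 95% Wilson interval for counting error. Injured libraries spread from 28.2 to 72.7%, and all uninjured libraries lay between 96.4 and 99.0%.

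Among the IL-36 cytokines, Il1f6 (IL-36 alpha), an epidermal cytokine, had 16.7, 20.2 and 10.3 CPM in Nf1-KO injured skin, against 0.986, 0.613 and 17.6 CPM in Nf1-KO uninjured skin. Il1f6 had 16.4, 103 and 65.2 CPM in control injured skin, against 1.13, 1.38 and 9.72 CPM in control uninjured skin. Replicate 3 of both uninjured groups stood far above the other libraries of its group, and only the control groups did not overlap. Il1f6 rose 14.6-fold in control skin (log2 fold change 3.87, SE 1.36, adjusted p = 0.0396, edgeR), while the Nf1-KO value was a log2 fold change of 1.32 (SE 1.27, adjusted p = 0.440). Leaving out control uninjured replicate 3 moved the control log2 fold change to 5.71, and the call was lost without control uninjured replicate 1 or 2, control injured replicate 2 or 3, or Nf1-KO injured replicate 1, with adjusted p from 0.0571 to 0.119. Without control uninjured replicates 1 and 2 together it was lost with a log2 fold change of 2.67 (adjusted p = 0.346, edgeR). It was also lost with no count filter (adjusted p = 0.0533) and with the ribosomal RNA-like covariate (adjusted p = 0.135).

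Il1f9 (IL-36 gamma), Il1f5 (the IL-36 receptor antagonist) and Il18 fell in Nf1-KO skin and were not called in control skin. Il18, a cytokine activated by the inflammasome and the IL-1 family ligand with the highest level per kb of exon (128 CPM per kb in control uninjured skin), had 44.6, 79.5 and 42.4 CPM in Nf1-KO injured skin, against 108, 109 and 186 CPM in Nf1-KO uninjured skin. Control skin held 60.0, 119.8 and 107 CPM of Il18 after injury, against 93.2, 139.5 and 163 CPM without it. Il18 fell 2.42-fold in Nf1-KO skin with no overlap (log2 fold change -1.28, SE 0.32, adjusted p = 0.00716, edgeR), and control libraries overlapped (log2 -0.46, SE 0.32, adjusted p = 0.229). Il1f9 fell 2.66-fold in Nf1-KO skin, with 32.8 ± 12.1 CPM after injury and 87.4 ± 58.8 CPM without (SD, n = 3 each; log2 fold change -1.41, SE 0.41, adjusted p = 0.0184, edgeR). Il1f5 fell 1.74-fold there, with 134 ± 32.8 CPM after injury and 233 ± 44.4 CPM without (SD, n = 3 each; log2 fold change -0.80, SE 0.22, adjusted p = 0.0109, edgeR). Without Nf1-KO uninjured replicate 3 the Il1f9 log2 fold change was -0.68 and its call was lost (adjusted p = 0.0774, edgeR), as it was without Nf1-KO injured replicate 1 (adjusted p = 0.0915) or 3 (adjusted p = 0.0593), and the Il1f5 call was lost without Nf1-KO injured replicate 1 (adjusted p = 0.0755). Both calls also ended with the ribosomal RNA-like covariate (adjusted p = 0.0913 for Il1f9 and 0.0555 for Il1f5).

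Il33, a nuclear alarmin of epithelium and stroma, rose 1.71-fold in Nf1-KO skin, with 67.6 ± 20.7 CPM after injury and 39.5 ± 3.57 CPM without (SD, n = 3 each; log2 fold change 0.77, SE 0.22, adjusted p = 0.0121, edgeR), while control skin had 57.3 ± 8.42 CPM after injury and 73.2 ± 14.5 CPM without (log2 -0.35, SE 0.22, adjusted p = 0.178). The Nf1-KO call was lost without Nf1-KO uninjured replicate 2 (adjusted p = 0.0567, edgeR), without Nf1-KO injured replicate 3 (adjusted p = 0.0569) and with the ribosomal RNA-like covariate (adjusted p = 0.0847). Il1f8 (IL-36 beta) and Il1f10 (IL-38) were called in neither genotype, and their group means lay between 11.9 and 29.9 CPM.

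**Figure D3:**
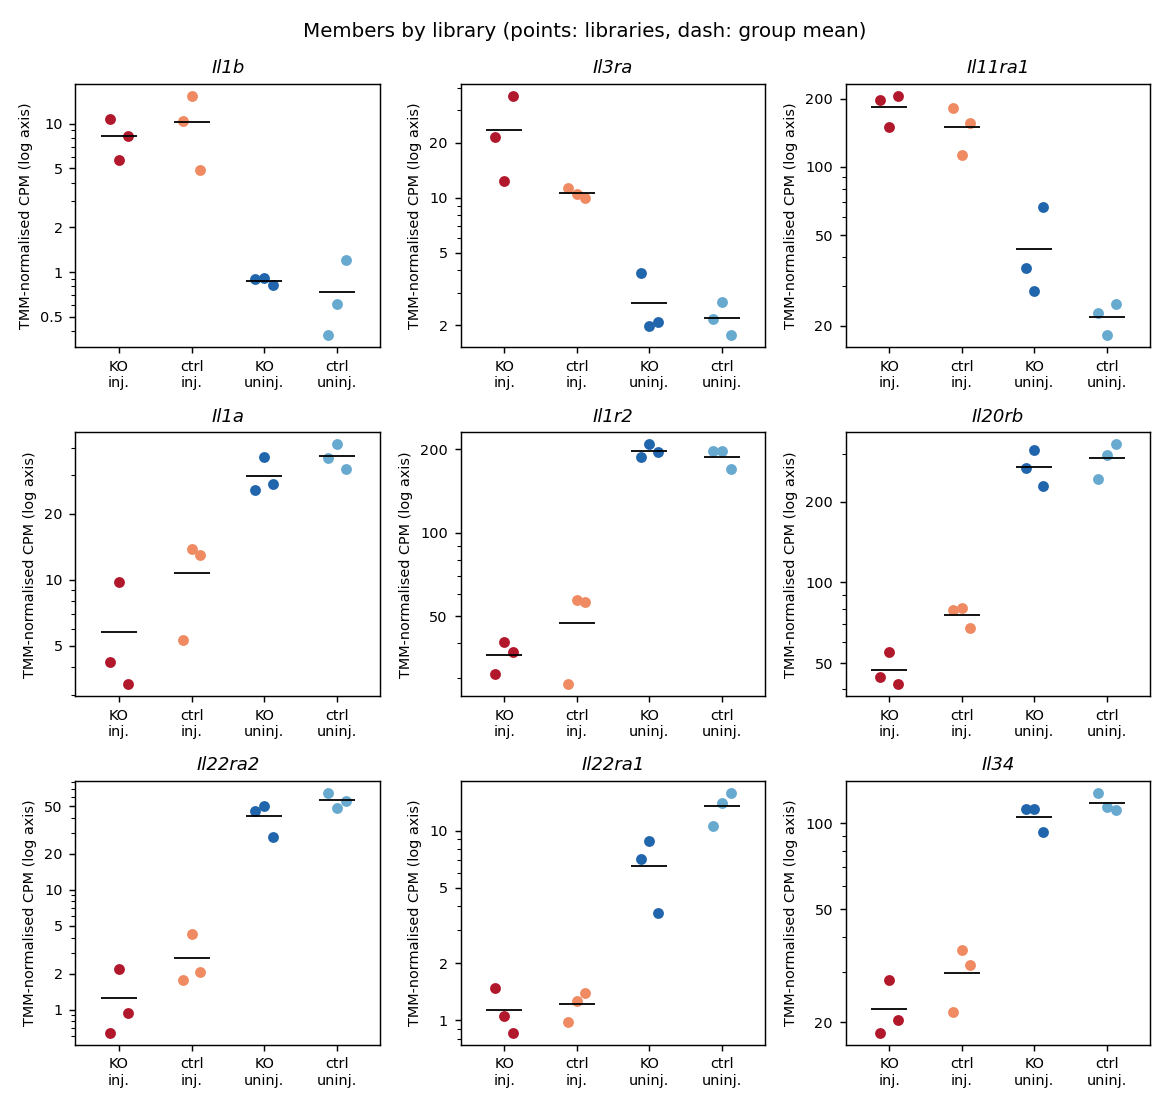
TMM-normalised CPM on log axes for 9 members in each of the 12 libraries, grouped as Nf1-KO injured, control injured, Nf1-KO uninjured and control uninjured skin, with the group mean as a dash. Il1b, Il3ra and Il11ra1 lay higher in every injured library than in every uninjured library of the same genotype, and the other 6 members lay lower.

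Receptors of the IL-1 family moved in both directions, with 4 of 10 lower and 3 higher in Nf1-KO skin and 5 lower and 2 higher in control skin. Il1r2 (chr1:40074079-40125231, plus strand), the decoy receptor that binds IL-1 without signalling, had 30.9, 40.5 and 37.1 CPM in Nf1-KO injured skin, against 188, 208 and 196 CPM in Nf1-KO uninjured skin. Control injured skin held 28.5, 57.5 and 56.1 CPM of Il1r2, against 198, 198 and 169.7 CPM in control uninjured skin. Injured libraries were far below uninjured ones, and Il1r2 fell 5.46-fold in Nf1-KO skin (log2 fold change -2.45, SE 0.24, adjusted p = 1.91e-06, edgeR) and 3.97-fold in control skin (log2 fold change -1.99, SE 0.24, adjusted p = 1.46e-05, edgeR). Per kb of exon it was the most abundant IL-1 family receptor, at 19.0 CPM per kb in Nf1-KO injured skin and 103 in Nf1-KO uninjured skin.

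Il18r1 (chr1:40465552-40500854, plus strand), the ligand-binding chain for IL-18, had 1.15, 2.26 and 3.79 CPM in Nf1-KO injured skin, against 27.0, 26.8 and 17.5 CPM in Nf1-KO uninjured skin. Il18r1 had 4.89, 3.48 and 2.54 CPM in control injured skin, against 27.4, 28.1 and 30.4 CPM in control uninjured skin. The groups lay far apart, and Il18r1 fell 10.0-fold in Nf1-KO skin (log2 fold change -3.33, SE 0.36, adjusted p = 4.60e-06, edgeR) and 7.92-fold in control skin (log2 fold change -2.98, SE 0.35, adjusted p = 1.23e-05, edgeR). Its partner chain Il18rap was called in neither genotype. Il1rap, the accessory chain shared by the IL-1, IL-33 and IL-36 receptors, had 11.3, 22.1 and 15.1 CPM in Nf1-KO injured skin, against 56.0, 64.1 and 36.3 CPM in Nf1-KO uninjured skin. Il1rap had 13.4, 22.2 and 18.5 CPM in control injured skin, against 73.5, 79.1 and 82.2 CPM in control uninjured skin. Without overlap, Il1rap fell 3.22-fold in Nf1-KO skin (log2 fold change -1.69, SE 0.26, adjusted p = 0.000152, edgeR) and 4.33-fold in control skin (log2 fold change -2.11, SE 0.27, adjusted p = 2.38e-05, edgeR).

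Il1rl1 (ST2), the receptor for IL-33 on mast cells and other immune cells, went the other way. Its levels were 5.64, 6.07 and 14.0 CPM in Nf1-KO injured skin, against 1.52, 2.30 and 2.53 CPM in Nf1-KO uninjured skin. Il1rl1 had 6.75, 15.1 and 9.89 CPM in control injured skin, against 1.69, 2.30 and 1.14 CPM in control uninjured skin. Every injured library was higher, although not every control uninjured library held Il1rl1 above the olfactory and vomeronasal receptors. Il1rl1 rose 4.02-fold in Nf1-KO skin (log2 fold change 2.01, SE 0.43, adjusted p = 0.00216, edgeR) and 6.22-fold in control skin (log2 fold change 2.64, SE 0.44, adjusted p = 0.000243, edgeR). Of 11 mast cell markers, 7 were called higher and 1 lower in Nf1-KO skin and 9 higher and 1 lower in control skin. Their summed level was 231 to 381 CPM in Nf1-KO injured skin, against 35.2 to 46.8 CPM in Nf1-KO uninjured skin. Mast cell markers in control skin summed to 209.8 to 380.4 CPM in control injured skin, against 27.4 to 43.9 CPM in control uninjured skin. No mast cell marker was at 0 in a group, and the part of these cells in the Il1rl1 values was not tested.

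Il18bp, the secreted protein that binds and blocks IL-18, had 16.1 ± 6.98 CPM in Nf1-KO injured skin and 6.27 ± 2.55 CPM in Nf1-KO uninjured skin, and 14.4 ± 6.56 CPM in control injured skin and 4.37 ± 0.808 CPM in control uninjured skin (SD, n = 3 each). Il18bp rose 2.57-fold in Nf1-KO skin (log2 fold change 1.36, SE 0.39, adjusted p = 0.0121, edgeR), where single libraries overlapped, and 3.28-fold in control skin (log2 fold change 1.71, SE 0.39, adjusted p = 0.00197, edgeR). The Nf1-KO call was lost without Nf1-KO uninjured replicate 1 (adjusted p = 0.0540, edgeR) or 2 (adjusted p = 0.0623). With the ribosomal RNA-like covariate both calls ended (log2 0.52 in Nf1-KO skin and 0.19 in control skin), and the control call also ended without control uninjured replicates 1 and 2 (adjusted p = 0.0689, edgeR). The longest exon stretch that Il18bp shares with Numa1 on the opposite strand is 80 bases, and Numa1 had 19800 counts beside 1615 for Il18bp.

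Il1r1, the signalling IL-1 receptor, rose 1.41-fold in Nf1-KO skin, with 38.1 ± 5.16 CPM after injury and 27.1 ± 3.43 CPM without (SD, n = 3 each; log2 fold change 0.49, SE 0.18, adjusted p = 0.0400, edgeR). Control skin had 30.2 ± 1.08 CPM after injury and 31.3 ± 3.54 CPM without (log2 -0.05, SE 0.18, adjusted p = 0.829). The Nf1-KO call was lost under 13 of the alternatives, among them each removal of an Nf1-KO uninjured library, removal of Nf1-KO injured replicate 1 or 3 or control uninjured replicate 2, and DESeq2 (adjusted p = 0.115), with adjusted p up to 0.122. Il1rl2, the IL-36 receptor, was called in neither genotype, with 48.7 ± 5.47 CPM in Nf1-KO injured skin and 73.4 ± 5.63 CPM in Nf1-KO uninjured skin (SD, n = 3 each; log2 -0.59, adjusted p = 0.0641, edgeR).

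The X-linked accessory-like receptors Il1rapl1 and Il1rapl2, best known from synapses, fell at low levels. Il1rapl2 had 0 counts in control injured skin against 59 in control uninjured skin, at least 20.9-fold lower against a floor of 3 counts over the group (adjusted p = 0.00110, edgeR), and it stood at 0, 0.353 and 0.258 CPM in Nf1-KO injured skin, against 0.627, 2.61 and 0.903 CPM in Nf1-KO uninjured skin (log2 fold change -2.75, SE 0.96, adjusted p = 0.0357, edgeR). Il1rapl1 had 3 counts in control injured skin against 65 in control uninjured skin, 23.0-fold lower with a 95% counting interval of 7.54 to 115 (adjusted p = 0.00271, edgeR), and it was not called in Nf1-KO skin (log2 -2.03, SE 0.87, adjusted p = 0.0754). Leaving out control injured replicate 2 or 3 moved the fitted Il1rapl1 value to -3.79 or -5.16 from -4.44 on the log2 scale, and its call ended without control uninjured replicates 1 and 2 (adjusted p = 0.122). The Nf1-KO call of Il1rapl2 was lost without Nf1-KO uninjured replicate 2 (log2 -1.93, adjusted p = 0.197, edgeR), Nf1-KO injured replicate 1 (log2 -2.09, adjusted p = 0.0932) or control uninjured replicate 2 (adjusted p = 0.0537), and was -3.51 without Nf1-KO injured replicate 2. It was also lost with the ribosomal RNA-like covariate (log2 -2.03, adjusted p = 0.241, edgeR) and without control uninjured replicates 1 and 2 (adjusted p = 0.0601). In 1 or more injured libraries of each genotype both genes were no higher than the olfactory and vomeronasal receptors. In control uninjured skin too, Il1rapl1 was not above those receptors in all 3 libraries. The receptor level itself was 0.00225 to 0.00641 raw CPM per kb in control injured skin, against 0.0942 to 0.331 in control uninjured skin. The part of that level in the Il1rapl1 values was not tested.

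Of the 6 IL-10 family receptors, 4 fell in both genotypes. Il22ra2 (chr10:19621998-19634681, plus strand), a secreted decoy that binds IL-22, had 0.641, 2.19 and 0.947 CPM in Nf1-KO injured skin, against 45.9, 49.7 and 27.4 CPM in Nf1-KO uninjured skin. Control injured skin had 1.78, 4.31 and 2.07 CPM of Il22ra2, against 64.0, 48.4 and 55.5 CPM in control uninjured skin. No injured library came near an uninjured one, and Il22ra2 fell 32.3-fold in Nf1-KO skin (log2 fold change -5.02, SE 0.43, adjusted p = 1.09e-06, edgeR) and 20.2-fold in control skin (log2 fold change -4.34, SE 0.40, adjusted p = 3.07e-06, edgeR). Without Nf1-KO injured replicate 2, the Nf1-KO log2 fold change was -5.71.

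Il22ra1 (chr4:135728172-135752140, plus strand), the signalling IL-22 receptor chain that keratinocytes carry, had 1.47, 1.06 and 0.861 CPM in Nf1-KO injured skin, against 7.08, 8.89 and 3.70 CPM in Nf1-KO uninjured skin. Il22ra1 had 0.978, 1.27 and 1.40 CPM in control injured skin, against 10.6, 14.0 and 15.8 CPM in control uninjured skin. The groups did not overlap, and Il22ra1 fell 5.72-fold in Nf1-KO skin (log2 fold change -2.52, SE 0.38, adjusted p = 0.000115, edgeR) and 11-fold in control skin (log2 fold change -3.45, SE 0.38, adjusted p = 8.21e-06, edgeR). Its promoter, printed above, is the window with matches to the AP-1 and NF-kB patterns.

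Both chains of the type I IL-20 receptor fell as well. Il20ra, the ligand-binding chain, had 0.641, 4.44 and 3.10 CPM in Nf1-KO injured skin, against 65.0, 64.1 and 42.1 CPM in Nf1-KO uninjured skin. Il20ra had 4.0, 7.47 and 4.48 CPM in control injured skin, against 50.3, 53.4 and 69.0 CPM in control uninjured skin. Uninjured libraries were several times higher throughout, and Il20ra fell 21.1-fold in Nf1-KO skin (log2 fold change -4.40, SE 0.50, adjusted p = 3.78e-05, edgeR; -5.02 without Nf1-KO injured replicate 2) and 10.7-fold in control skin (log2 fold change -3.43, SE 0.46, adjusted p = 0.000143, edgeR). Il20rb (chr9:100457719-100486788, minus strand), the chain shared with the IL-24 receptor and the most abundant of the family per kb at 68.8 CPM per kb in control uninjured skin, had 44.4, 55.0 and 41.9 CPM in Nf1-KO injured skin, against 267, 312 and 228 CPM in Nf1-KO uninjured skin. Control skin held 79.3, 80.5 and 67.6 CPM of Il20rb after injury, against 243, 299 and 326 CPM without it. With no overlap, Il20rb fell 5.71-fold in Nf1-KO skin (log2 fold change -2.51, SE 0.21, adjusted p = 4.39e-07, edgeR) and 3.82-fold in control skin (log2 fold change -1.93, SE 0.20, adjusted p = 4.59e-06, edgeR).

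Basal keratinocyte markers fell beside these epithelial receptors, with 8 of 9 called lower in each genotype. Their summed level was 7988 to 11108 CPM in Nf1-KO injured skin, against 20227 to 26615 CPM in Nf1-KO uninjured skin. In control skin the basal keratinocyte markers summed to 13108 to 14527 CPM in control injured skin, against 16235 to 22628 CPM in control uninjured skin. Fibroblast markers, all 10 called higher in each genotype, summed to 9861 to 18612 CPM in Nf1-KO injured skin, against 1027 to 2579 CPM in Nf1-KO uninjured skin. In control skin the fibroblast markers summed to 6141 to 16920.3 CPM in control injured skin, against 1622 to 3451 CPM in control uninjured skin. Wound-activated keratinocyte markers went the other way, with 4 of 8 called higher and 0 lower in each genotype. They summed to 6969.6 to 8806 CPM in Nf1-KO injured skin, against 1129 to 3222 CPM in Nf1-KO uninjured skin, and to 7514 to 17509.7 CPM in control injured skin, against 902 to 2225 CPM in control uninjured skin. Of 12 differentiating keratinocyte markers, 1 was called higher and 7 lower in Nf1-KO skin and 2 higher and 5 lower in control skin. No marker of these lists was at 0 in a group. The part of these shifts in the receptor values, or in those of the epidermal Il1f6, was not tested.

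Ligands of the IL-10 family were scarce. Il10, the anti-inflammatory cytokine, had 0.833, 0.776 and 1.38 CPM in Nf1-KO injured skin, against 0.0896, 0.0766 and 0.181 CPM in Nf1-KO uninjured skin. Il10 had 0.267, 0.95 and 0.401 CPM in control injured skin, against 0.376, 0.460 and 0.379 CPM in control uninjured skin. Only the Nf1-KO groups were separate, and Il10 rose 8.08-fold there (log2 fold change 3.01, SE 0.82, adjusted p = 0.00948, edgeR). The 3 Nf1-KO uninjured libraries held 4 counts of Il10, a level no higher than the olfactory and vomeronasal receptors in at least 1 of them. Its call was lost without Nf1-KO uninjured replicate 2 (adjusted p = 0.0519, edgeR). The IL-10 binding chain Il10ra, carried by leukocytes, had 10.3, 8.54 and 28.7 CPM in Nf1-KO injured skin, against 4.93, 4.90 and 3.43 CPM in Nf1-KO uninjured skin. Il10ra had 8.26, 7.66 and 6.95 CPM in control injured skin, against 5.08, 2.84 and 4.92 CPM in control uninjured skin. Neither genotype overlapped, and Il10ra rose 3.57-fold in Nf1-KO skin (log2 fold change 1.83, SE 0.41, adjusted p = 0.00255, edgeR), with a control value of log2 0.83 (SE 0.40, adjusted p = 0.0889). Without Nf1-KO injured replicate 3, the highest library, the Nf1-KO log2 fold change was 1.11, and with the ribosomal RNA-like covariate the call was lost (adjusted p = 0.0601, edgeR).

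Il19, a keratinocyte and myeloid cytokine that acts through the IL-20 receptor, had 2.04, 1.08 and 1.54 CPM in control injured skin, against 0.752, 0.230 and 0.189 CPM in control uninjured skin. Those groups did not overlap, although not every uninjured library held Il19 above the olfactory and vomeronasal receptors. Il19 rose 4.05-fold (log2 fold change 2.02, SE 0.73, adjusted p = 0.0279, edgeR), while Nf1-KO skin, with 1.35, 0.776 and 0.602 CPM after injury, against 0.448, 0.613 and 0.0903 CPM without, was not called (log2 1.21, SE 0.74, adjusted p = 0.201). The control log2 fold change was 2.93 without control uninjured replicate 1, and the call was lost without control uninjured replicate 2 (adjusted p = 0.104, edgeR), control uninjured replicate 3 (adjusted p = 0.0688) or control injured replicate 1 (adjusted p = 0.0717). It was also lost with the ribosomal RNA-like covariate (adjusted p = 0.255) and without control uninjured replicates 1 and 2 (adjusted p = 0.0696). Il24 was called in neither genotype (adjusted p = 0.337 in Nf1-KO skin and 0.0558 in control skin, edgeR), and Il20 and Il22 had 16 and 10 counts in all and were not tested.

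Macrophage markers rose beside Il1b, Il10ra and Il18bp, with 13 of 14 called higher in Nf1-KO skin and 11 in control skin. Their summed level was 886 to 2106 CPM in Nf1-KO injured skin, against 219 to 291 CPM in Nf1-KO uninjured skin. Macrophage markers in control skin summed to 560.1 to 1006 CPM in control injured skin, against 183 to 218 CPM in control uninjured skin. Neutrophil markers summed to 416 to 633 CPM in Nf1-KO injured skin, against 8.06 to 52.7 CPM in Nf1-KO uninjured skin. Neutrophil markers in control skin summed to 404 to 729 CPM in control injured skin, against 8.14 to 22.3 CPM in control uninjured skin. Most of each injured sum was S100a8 and S100a9. S100a8 had 244 to 309 CPM in Nf1-KO injured and 233 to 351 CPM in control injured skin. S100a9 had 139 to 268 CPM in Nf1-KO injured and 152 to 354 CPM in control injured skin. Of 12 neutrophil markers, 5 rose in Nf1-KO skin and 4 rose and 2 fell in control skin, and the defining marker Ly6g was at 0 in every injured library. The part of either cell type in the interleukin values was not tested.

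In the IL-17 family, Il17b was the ligand and Il17rc the receptor called in both genotypes. Il17b, a family member made by epithelial and stromal cells, had 1.73, 1.83 and 10.2 CPM in Nf1-KO injured skin, against 0.627, 0.153 and 0.813 CPM in Nf1-KO uninjured skin. Il17b had 3.47, 0.823 and 4.28 CPM in control injured skin, against 0.376, 0.537 and 0.189 CPM in control uninjured skin. Injured libraries were higher without overlap, although Nf1-KO uninjured Il17b was not above the olfactory and vomeronasal receptors in every library. Il17b rose 8.61-fold in Nf1-KO skin (log2 fold change 3.11, SE 0.83, adjusted p = 0.00944, edgeR) and 7.70-fold in control skin (log2 fold change 2.95, SE 0.86, adjusted p = 0.00910, edgeR). Without Nf1-KO injured replicate 3 the Nf1-KO value was log2 1.77 and the call was lost (adjusted p = 0.0587, edgeR). The ribosomal RNA-like covariate ended both calls (adjusted p = 0.108 in Nf1-KO skin and 0.382 in control skin), and the control call also ended without control uninjured replicates 1 and 2 (adjusted p = 0.0840).

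Il17f, a cytokine of activated T cells and innate lymphocytes, had 2 counts in control injured skin against 46 in control uninjured skin, a ratio of 24.5 with a 95% counting interval of 6.40 to 208 (adjusted p = 0.00259, edgeR). In Nf1-KO skin Il17f had 0, 0.282 and 0.258 CPM after injury, against 0.627, 0.690 and 0.723 CPM without, and was not called (log2 -1.91, SE 0.92, adjusted p = 0.109). Not every library of either injured group held Il17f above the olfactory and vomeronasal receptors. In control uninjured skin Il17f averaged 0.667 raw CPM per kb, beside 0.0942 to 0.331 for those receptors, which stood at 0.00225 to 0.00641 in control injured skin. The part of that level in the Il17f values was not tested. Il25, an epithelial cytokine of type 2 responses, had 0.0889, 0.0633 and 0.134 CPM in control injured skin, against 1.03, 1.61 and 0.820 CPM in control uninjured skin. Il25 had 0, 0.212 and 0.258 CPM in Nf1-KO injured skin, against 0.0896, 0.690 and 0.994 CPM in Nf1-KO uninjured skin. In neither of these Nf1-KO groups was Il25 above the olfactory and vomeronasal receptors in every library. Only its control groups were separate, and Il25 fell 11.1-fold there (log2 fold change -3.47, SE 0.99, adjusted p = 0.00757, edgeR; Nf1-KO adjusted p = 0.125). The fitted control value of Il17f, log2 -4.41, was -6.91 without control injured replicate 2 and -3.82 without replicate 3, and both control calls ended with the ribosomal RNA-like covariate (adjusted p = 0.104 for Il17f and 0.106 for Il25) and without control uninjured replicates 1 and 2 (adjusted p = 0.0514 and 0.109).

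Il17d had 5.26, 4.30 and 2.5 CPM in Nf1-KO injured skin, against 2.06, 1.53 and 1.08 CPM in Nf1-KO uninjured skin. Il17d had 1.07, 2.53 and 3.27 CPM in control injured skin, against 1.41, 1.38 and 0.694 CPM in control uninjured skin. The Nf1-KO groups were separate and Il17d rose 2.58-fold there (log2 fold change 1.37, SE 0.49, adjusted p = 0.0393, edgeR), with a control value of log2 1.00 (SE 0.51, adjusted p = 0.103). That call was lost without Nf1-KO injured replicate 1 (adjusted p = 0.126, edgeR) or 2 (adjusted p = 0.0757) and without any 1 of the Nf1-KO uninjured libraries (adjusted p from 0.0566 to 0.112). Median-of-ratios scaling (adjusted p = 0.0527) and a filter of 2 CPM in 3 libraries (adjusted p = 0.0548) also ended it. Il17a and Il17c had 16 and 27 counts in all and were not tested.

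Il17rc (chr6:113471427-113483140, plus strand), the chain that joins Il17ra in the IL-17A and IL-17F receptor and the most abundant IL-17 receptor per kb, had 87.8, 139.6 and 91.6 CPM in Nf1-KO injured skin, against 302, 261 and 312 CPM in Nf1-KO uninjured skin. Control injured skin had 138, 149 and 146 CPM of Il17rc, against 225, 234 and 311 CPM in control uninjured skin. Injured libraries were lower in each case, and Il17rc fell 2.74-fold in Nf1-KO skin (log2 fold change -1.46, SE 0.21, adjusted p = 9.15e-05, edgeR) and 1.78-fold in control skin (log2 fold change -0.83, SE 0.21, adjusted p = 0.00376, edgeR). Its neighbour on the chromosome Il17re, the receptor chain for IL-17C, fell 2.34-fold in Nf1-KO skin, with 22.4 ± 9.92 CPM after injury and 52.4 ± 3.82 CPM without (SD, n = 3 each; log2 fold change -1.22, SE 0.24, adjusted p = 0.000946, edgeR), and stood at 29.6 ± 0.580 CPM after injury and 42.9 ± 3.33 CPM without in control skin (log2 -0.54, adjusted p = 0.0613). Il17rb, the receptor for IL-25, fell 2.68-fold in control skin, with 1.70 ± 0.379 CPM after injury and 4.59 ± 0.720 CPM without (SD, n = 3 each; log2 fold change -1.42, SE 0.39, adjusted p = 0.00605, edgeR), and was not called in Nf1-KO skin (log2 -0.81, adjusted p = 0.105). An exon stretch of 141 bases of Il17rb is shared with Actr8 on the opposite strand, which had 3987 counts beside 479 for Il17rb. The common chain Il17ra and the regulator Il17rd were called in neither genotype. With the ribosomal RNA-like covariate the control calls of Il17rc (adjusted p = 0.219, edgeR) and Il17rb (adjusted p = 0.425) were lost, and that of Il17rb also ended without control uninjured replicates 1 and 2 (adjusted p = 0.0663).

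Among receptors of the IL-6 and IL-12 families, Il11ra1 rose while Il6ra, Il12rb2 and Il31ra fell in both genotypes. Il11ra1 (chr4:41699989-41769474, plus strand), the IL-11 receptor of stromal cells, had 196, 150.5 and 206 CPM in Nf1-KO injured skin, against 35.7, 28.4 and 66.8 CPM in Nf1-KO uninjured skin. Control injured skin had 182, 113 and 156 CPM of Il11ra1, against 22.7, 18.2 and 24.9 CPM in control uninjured skin. Every injured library was higher, and Il11ra1 rose 4.23-fold in Nf1-KO skin (log2 fold change 2.08, SE 0.28, adjusted p = 4.93e-05, edgeR) and 6.85-fold in control skin (log2 fold change 2.78, SE 0.29, adjusted p = 5.73e-06, edgeR). The near-identical copy Il11ra2 held 11 counts in all, and how reads were divided between the copies is not given in the sources used here, so the Il11ra1 level is uncertain. Its ligand Il11 was called in neither genotype. Markers of growing hair follicles rose beside Il11ra1, with all 11 tested called higher in each genotype and sums of 10281 to 31675 CPM in Nf1-KO injured skin, against 36.3 to 109 CPM in Nf1-KO uninjured skin. In control skin these follicle markers summed to 11906 to 21559.9 CPM after injury, against 32.1 to 43.4 CPM without. Fibroblast sums are given above, and the part of either in the Il11ra1 values was not tested.

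Il6ra, the IL-6 binding chain, had 26.9, 22.1 and 43.8 CPM in Nf1-KO injured skin, against 125, 121 and 124 CPM in Nf1-KO uninjured skin. Il6ra had 49.0, 33.2 and 32.3 CPM in control injured skin, against 77.1, 92.4 and 116 CPM in control uninjured skin. Injured libraries were lower throughout, and Il6ra fell 3.99-fold in Nf1-KO skin (log2 fold change -2.00, SE 0.25, adjusted p = 2.28e-05, edgeR) and 2.5-fold in control skin (log2 fold change -1.32, SE 0.25, adjusted p = 0.000539, edgeR). Il6st (gp130), the signalling chain that Il6ra shares with many receptors, rose 1.71-fold in Nf1-KO skin, with 132 ± 41.9 CPM after injury and 77.1 ± 19.4 CPM without (SD, n = 3 each; log2 fold change 0.78, SE 0.23, adjusted p = 0.0173, edgeR), although single libraries overlapped. Control skin had 121 ± 9.46 CPM of Il6st after injury and 99.5 ± 11.2 CPM without (log2 0.28, adjusted p = 0.314, edgeR). The Il6st call was lost without Nf1-KO uninjured replicate 2 (adjusted p = 0.0501, edgeR) or 3 (adjusted p = 0.0597) or Nf1-KO injured replicate 3 (adjusted p = 0.0801). It was also lost when the groups were compared alone (adjusted p = 0.0762) and with the ribosomal RNA-like covariate (adjusted p = 0.131).

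Il12rb2 (chr6:67291318-67376188, minus strand), the IL-12 receptor chain that drives STAT4 signalling in T cells, had 5.19, 3.74 and 5.16 CPM in Nf1-KO injured skin, against 27.7, 23.1 and 13.2 CPM in Nf1-KO uninjured skin. Il12rb2 had 8.53, 3.86 and 6.88 CPM in control injured skin, against 33.9, 43.1 and 33.9 CPM in control uninjured skin. All injured libraries were lower, and Il12rb2 fell 4.53-fold in Nf1-KO skin (log2 fold change -2.18, SE 0.31, adjusted p = 7.44e-05, edgeR) and 5.78-fold in control skin (log2 fold change -2.53, SE 0.31, adjusted p = 2.05e-05, edgeR). An exon stretch of 1419 bases is shared with Serbp1 on the opposite strand, which had 74598 counts beside 2669 for Il12rb2, so the reads of these genes cannot be told apart there. Il31ra, the receptor for the itch cytokine IL-31, had 2.95, 3.81 and 3.53 CPM in Nf1-KO injured skin, against 17.7, 10.3 and 24.8 CPM in Nf1-KO uninjured skin. Il31ra had 4.0, 6.21 and 4.01 CPM in control injured skin, against 11.4, 9.13 and 24.1 CPM in control uninjured skin. No groups overlapped, and Il31ra fell 5.11-fold in Nf1-KO skin (log2 fold change -2.35, SE 0.39, adjusted p = 0.000270, edgeR) and 3.13-fold in control skin (log2 fold change -1.65, SE 0.38, adjusted p = 0.00205, edgeR). Without control uninjured replicate 3 the control log2 fold change of Il31ra was -1.0, and -2.34 without replicates 1 and 2. Its control call was lost with the ribosomal RNA-like covariate (adjusted p = 0.0637, edgeR).

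None of the 6 tested ligands of these families was called in either genotype, by edgeR. Il6 had 2.82, 1.06 and 1.38 CPM in Nf1-KO injured skin, against 0.627, 0.996 and 0.813 CPM in Nf1-KO uninjured skin. Il6 had 1.24, 0.95 and 0.535 CPM in control injured skin, against 2.07, 1.30 and 1.01 CPM in control uninjured skin (adjusted p = 0.134 in Nf1-KO skin and 0.322 in control skin, edgeR). The Il6 groups were separate in Nf1-KO skin and overlapped in control skin. Il12b and Il23a, the chains of IL-12 and IL-23, had control log2 fold changes of -2.28 (SE 0.99, adjusted p = 0.0615, edgeR) and -1.33 (SE 0.59, adjusted p = 0.0662). Il31, whose receptor fell, had 21 counts in all and was not tested.

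In the common gamma chain and type 2 group, Il3ra and Il4ra rose and Il13ra1, Il15 and Il15ra fell in both genotypes. Il3ra, the IL-3 receptor of mast cells, basophils and other myeloid cells, had 21.5, 12.3 and 36.1 CPM in Nf1-KO injured skin, against 3.85, 1.99 and 2.08 CPM in Nf1-KO uninjured skin. In control skin it had 11.3, 10.5 and 9.89 CPM after injury, against 2.16, 2.69 and 1.77 CPM without injury. Every injured library was higher, and Il3ra rose 8.82-fold in Nf1-KO skin (log2 fold change 3.14, SE 0.38, adjusted p = 1.56e-05, edgeR) and 4.79-fold in control skin (log2 fold change 2.26, SE 0.38, adjusted p = 0.000244, edgeR). Il4ra, the chain that IL-4 and IL-13 share, had 77.6, 67.2 and 84.8 CPM in Nf1-KO injured skin, against 30.7, 34.2 and 28.9 CPM in Nf1-KO uninjured skin. Il4ra had 80.3, 61.6 and 64.5 CPM in control injured skin, against 32.5, 41.4 and 50.9 CPM in control uninjured skin. Without overlap, Il4ra rose 2.44-fold in Nf1-KO skin (log2 fold change 1.29, SE 0.20, adjusted p = 0.000116, edgeR) and 1.65-fold in control skin (log2 fold change 0.72, SE 0.19, adjusted p = 0.00501, edgeR). The control call of Il4ra was lost with the ribosomal RNA-like covariate (adjusted p = 0.178, edgeR) and without control uninjured replicates 1 and 2 (adjusted p = 0.209).

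Il13ra1 (chrX:36112110-36171259, plus strand), which pairs with Il4ra to bind IL-13, moved against its partner. It had 37.8, 55.4 and 54.9 CPM in Nf1-KO injured skin, against 148, 141 and 105 CPM in Nf1-KO uninjured skin. Il13ra1 had 73.5, 73.6 and 73.7 CPM in control injured skin, against 212, 237 and 380.1 CPM in control uninjured skin. Il13ra1 fell 2.66-fold in Nf1-KO skin (log2 fold change -1.41, SE 0.24, adjusted p = 0.000285, edgeR) and 3.76-fold in control skin (log2 fold change -1.91, SE 0.24, adjusted p = 2.35e-05, edgeR), with no overlap in either. The decoy Il13ra2 was called in neither genotype, and Il4 and Il13 were near the limit of detection, with 113 and 17 counts in all.

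Il15, which sustains natural killer cells and resident T cells, and its presenting receptor Il15ra fell together. Il15 had 3.40, 6.21 and 4.30 CPM in Nf1-KO injured skin, against 13.8, 16.3 and 13.8 CPM in Nf1-KO uninjured skin. Il15 had 3.11, 6.14 and 5.28 CPM in control injured skin, against 19.7, 18.1 and 16.3 CPM in control uninjured skin. Il15 fell 3.16-fold in Nf1-KO skin (log2 fold change -1.66, SE 0.29, adjusted p = 0.000406, edgeR) and 3.69-fold in control skin (log2 fold change -1.88, SE 0.29, adjusted p = 0.000130, edgeR), and its groups did not overlap. Il15ra had 15.2, 17.7 and 25.4 CPM in Nf1-KO injured skin, against 35.4, 32.9 and 32.1 CPM in Nf1-KO uninjured skin. Il15ra had 16.1, 21.5 and 16.2 CPM in control injured skin, against 34.7, 28.1 and 29.7 CPM in control uninjured skin. Lower in every injured library, Il15ra fell 1.73-fold in Nf1-KO skin (log2 fold change -0.79, SE 0.21, adjusted p = 0.00929, edgeR) and 1.72-fold in control skin (log2 fold change -0.78, SE 0.21, adjusted p = 0.00579, edgeR). Its Nf1-KO call was lost without Nf1-KO injured replicate 1 (adjusted p = 0.0853, edgeR), and its control call with the ribosomal RNA-like covariate (adjusted p = 0.0509) and without control uninjured replicates 1 and 2 (adjusted p = 0.0932).

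Il2rb, the chain that IL-2 and IL-15 share, fell 2.78-fold in control skin, with 2.95 ± 0.297 CPM after injury and 8.24 ± 0.907 CPM without (SD, n = 3 each; log2 fold change -1.48, SE 0.49, adjusted p = 0.0169, edgeR), and was not called in Nf1-KO skin (log2 -1.06, SE 0.50, adjusted p = 0.101). Its call was lost without control uninjured replicate 1 (adjusted p = 0.0517, edgeR) or 2 (adjusted p = 0.0507) or control injured replicate 3 (adjusted p = 0.0539), without both control uninjured replicates 1 and 2 (adjusted p = 0.176) and with the ribosomal RNA-like covariate (adjusted p = 0.514). Markers of T and natural killer cells, which carry Il2rb, Il18r1 and Il12rb2, did not move one way, with 1 of 16 higher and 4 lower in each genotype. They summed to 104 to 226 CPM in Nf1-KO injured skin, against 81.4 to 115 CPM in Nf1-KO uninjured skin. In control skin the T and natural killer cell markers summed to 125 to 174 CPM in control injured skin, against 112 to 119 CPM in control uninjured skin.

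Il21r, a lymphocyte and myeloid receptor, had 3.08, 1.98 and 7.06 CPM in Nf1-KO injured skin, against 0.538, 0.460 and 1.54 CPM in Nf1-KO uninjured skin. Il21r had 1.51, 1.90 and 1.60 CPM in control injured skin, against 1.41, 0.767 and 0.883 CPM in control uninjured skin. Il21r rose 4.76-fold in Nf1-KO skin (log2 fold change 2.25, SE 0.58, adjusted p = 0.00733, edgeR), and the control value was log2 0.72 (SE 0.57, adjusted p = 0.297), with no overlap in either genotype. Il21r was not above the olfactory and vomeronasal receptors in every Nf1-KO uninjured library. The Nf1-KO log2 fold change was 1.62 without Nf1-KO injured replicate 3 and 3.02 without Nf1-KO uninjured replicate 3, and the call ended with the ribosomal RNA-like covariate (adjusted p = 0.0890, edgeR). Il9r, a mast cell and T cell receptor, fell 4.60-fold in control skin, with 0.272 ± 0.126 CPM after injury and 1.28 ± 0.663 CPM without (SD, n = 3 each; log2 fold change -2.20, SE 0.82, adjusted p = 0.0322, edgeR), and was not called in Nf1-KO skin (adjusted p = 0.284). In control uninjured skin Il9r averaged 0.300 raw CPM per kb, near the olfactory and vomeronasal receptors at 0.0942 to 0.331, although above them in each library. Not every Nf1-KO uninjured library held Il9r above them. The Il9r call was lost without control uninjured replicate 1 (adjusted p = 0.128, edgeR) or 2 (adjusted p = 0.0824) or control injured replicate 2 (adjusted p = 0.108) or 3 (adjusted p = 0.0586), without control uninjured replicates 1 and 2 (adjusted p = 0.514) and with the ribosomal RNA-like covariate (adjusted p = 0.0954). The common gamma chain Il2rg, Il2ra, Il7r, Il7 and Il2 were called in neither genotype, and Il5, Il5ra and Il21 were not tested, with 31, 44 and 58 counts in all.

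Il34 (chr8:110741829-110805924, minus strand), the keratinocyte ligand of the CSF-1 receptor that maintains Langerhans cells, fell with the epithelial receptors. It had 18.4, 28.2 and 20.4 CPM in Nf1-KO injured skin, against 112, 112 and 92.9 CPM in Nf1-KO uninjured skin. Il34 had 21.7, 35.8 and 31.8 CPM in control injured skin, against 127, 114 and 111 CPM in control uninjured skin. All injured libraries were lower, and Il34 fell 4.72-fold in Nf1-KO skin (log2 fold change -2.24, SE 0.22, adjusted p = 1.85e-06, edgeR) and 3.94-fold in control skin (log2 fold change -1.98, SE 0.22, adjusted p = 7.15e-06, edgeR). The Langerhans cell marker Cd207 had 4.10 to 13.3 CPM in Nf1-KO injured skin, against 29.4 to 61.7 CPM in Nf1-KO uninjured skin, and 7.73 to 14.0 CPM in control injured skin, against 29.6 to 36.8 CPM in control uninjured skin. For the whole dendritic and Langerhans list, 2 of 12 markers were called higher and 1 lower in Nf1-KO skin and 0 higher and 2 lower in control skin, and none was at 0 in a group. The other receptor ligand Csf1 rose in Nf1-KO skin (log2 fold change 0.66, SE 0.22, adjusted p = 0.0262, edgeR), and Il16 and Il4i1 were called in neither genotype.

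Levels near the background limited what low members could show. Of the 80 members, 13 in Nf1-KO injured, 14 in control injured, 19 in Nf1-KO uninjured and 14 in control uninjured skin were not above the olfactory and vomeronasal receptors, per kb, in all 3 libraries. The 11 members not tested had at most 58 counts over all libraries. Il11ra2, Il13, Il17a, Il21, Il22, Il31 and Il5 were in that set in all 4 groups, and no pattern is given for them.

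**Figure D4:**
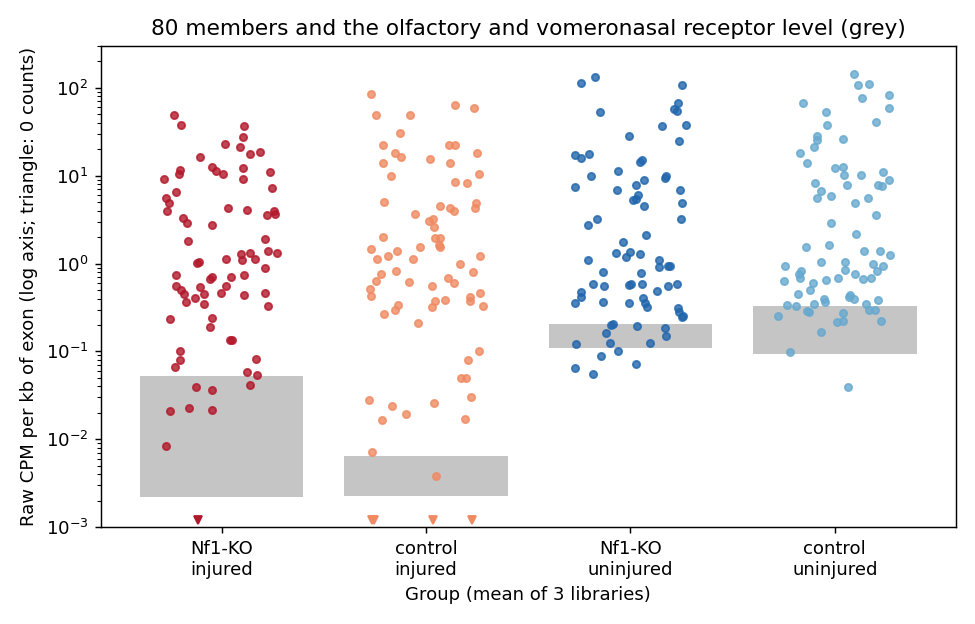
Raw CPM per kb of exon on a log axis for the 80 members in each group, as the mean of 3 libraries, with triangles for members with 0 counts. The grey band gives the range over the group's libraries of the mean level of 1456 olfactory and vomeronasal receptor genes, which reached 0.0530 in Nf1-KO injured and 0.331 in control uninjured skin.

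Partner and signalling genes outside the name rule, from lists chosen with earlier results known, moved in both directions. Counts called in these lists stand beside 19.1% of all genes higher and 18.4% lower in Nf1-KO skin. For control skin the shares were 22.8% higher and 32.5% lower. Of 13 partner genes, 6 rose and 2 fell in Nf1-KO skin and 3 rose and 3 fell in control skin. Crlf2, the receptor for the epithelial cytokine TSLP, rose 3.63-fold in Nf1-KO skin (log2 fold change 1.86, SE 0.40, adjusted p = 0.00196, edgeR) and 3.68-fold in control skin (log2 fold change 1.88, SE 0.40, adjusted p = 0.00125, edgeR). Csf2rb, the chain that Il3ra signals through, rose in Nf1-KO skin (log2 fold change 1.52, SE 0.31, adjusted p = 0.00139, edgeR) and its copy Csf2rb2 rose in both (log2 fold change 0.91, SE 0.34, adjusted p = 0.0477 in Nf1-KO skin and log2 fold change 1.03, SE 0.34, adjusted p = 0.0173 in control skin, edgeR); reads of these near-identical genes may be divided between them. Lifr, a gp130 partner, fell in both (log2 fold change -0.93, SE 0.32, adjusted p = 0.0308 in Nf1-KO skin and log2 fold change -1.13, SE 0.32, adjusted p = 0.00731 in control skin, edgeR), and so did Ifnlr1, which pairs with Il10rb (log2 fold change -1.12, SE 0.26, adjusted p = 0.00333 in Nf1-KO skin and log2 fold change -0.86, SE 0.26, adjusted p = 0.00960 in control skin, edgeR).

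Among 8 SOCS feedback genes, 3 rose and 2 fell in Nf1-KO skin and 4 rose and 2 fell in control skin. Socs1, an inhibitor of Janus kinases induced by cytokines, rose 3.54-fold in Nf1-KO skin (log2 fold change 1.82, SE 0.31, adjusted p = 0.000346, edgeR) and 4.85-fold in control skin (log2 fold change 2.28, SE 0.32, adjusted p = 6.16e-05, edgeR), whereas Socs6 fell in both (log2 fold change -0.88, SE 0.20, adjusted p = 0.00304 in Nf1-KO skin and log2 fold change -1.13, SE 0.20, adjusted p = 0.000366 in control skin, edgeR). Of 11 Janus kinase and STAT genes, 1 rose and 2 fell in Nf1-KO skin and 0 rose and 5 fell in control skin. Stat5b fell in both (log2 fold change -0.67, SE 0.17, adjusted p = 0.00771 in Nf1-KO skin and log2 fold change -0.76, SE 0.17, adjusted p = 0.00195 in control skin, edgeR).

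Of 17 genes that carry IL-1 and IL-17 signals, 1 rose and 5 fell in Nf1-KO skin and 2 rose and 5 fell in control skin. As a share of the 17, neither count was above the share of all genes called, 37.4% in Nf1-KO and 55.3% in control skin. The fallers included Tollip, an inhibitor of the pathway (log2 fold change -1.47, SE 0.21, adjusted p = 7.25e-05 in Nf1-KO skin and log2 fold change -1.58, SE 0.21, adjusted p = 4.25e-05 in control skin, edgeR), and Irak2, a kinase adaptor that sustains it (log2 fold change -1.28, SE 0.22, adjusted p = 0.000352 in Nf1-KO skin and log2 fold change -1.34, SE 0.22, adjusted p = 0.000206 in control skin, edgeR). Tnfaip3 (A20), which ends NF-kB signalling, also fell (log2 fold change -1.21, SE 0.26, adjusted p = 0.00217 in Nf1-KO skin and log2 fold change -1.50, SE 0.26, adjusted p = 0.000320 in control skin, edgeR). Of 9 inflammasome genes, which process IL-1 beta and IL-18, 1 rose and 3 fell in Nf1-KO skin and 1 rose and 5 fell in control skin. Gsdmd, the pore through which these cytokines leave the cell, was the gene that rose (log2 fold change 1.96, SE 0.33, adjusted p = 0.000288 in Nf1-KO skin and log2 fold change 1.58, SE 0.33, adjusted p = 0.00106 in control skin, edgeR), and the sensors Nlrp1a (log2 fold change -3.46, SE 0.67, adjusted p = 0.000953 in Nf1-KO skin and log2 fold change -3.22, SE 0.71, adjusted p = 0.00147 in control skin, edgeR) and Nlrp1b fell.

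Between genotypes edgeR called no member, while DESeq2 and edgeR without its count filter called a few. In uninjured skin 0 of 69 members were called between Nf1-KO and control by edgeR, with 7 members at an unadjusted p under 0.05. Of all genes 0.0296% were called (0.0254% higher and 0.00423% lower). There limma voom called 0 members and DESeq2 called 2 of 80, Il13ra1 and Il33, beside 60 genes among all. In injured skin 0 of 69 were called between Nf1-KO and control, as for all genes (0.0%), with 11 members at an unadjusted p under 0.05. There limma voom called 0 and DESeq2 called 3 of 80, Il1f9, Il1f5 and Il20rb, beside 124 genes among all. The difference between injury responses gave 0 members and 0.0% of all genes, with 7 members at an unadjusted p under 0.05 and 0 by limma voom or DESeq2. Groups did not overlap for 14 members, or 20.3%, in uninjured skin, where 14.8% of all genes did not overlap, and for 11, or 15.9%, in injured skin, where 9.05% did not. The genotype comparisons share groups with the injury comparisons, so the values below are given side by side and not as separate support.

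In uninjured skin the smallest p belonged to Il13ra1, Il33 and Il11ra1. Il13ra1 had 148, 141 and 105 CPM in Nf1-KO uninjured skin, against 212, 237 and 380.1 CPM in control uninjured skin, with no overlap (log2 fold change -1.07, SE 0.23, adjusted p = 0.289, edgeR). Il33 had 42.3, 35.5 and 40.7 CPM in Nf1-KO uninjured skin, against 65.5, 64.3 and 89.9 CPM in control uninjured skin, again without overlap (log2 fold change -0.89, SE 0.22, adjusted p = 0.401, edgeR). Il11ra1 had 35.7, 28.4 and 66.8 CPM in Nf1-KO uninjured skin, against 22.7, 18.2 and 24.9 CPM in control uninjured skin, and these groups were separate too (log2 fold change 0.99, SE 0.28, adjusted p = 0.473, edgeR). With no count filter beyond 1 count, edgeR called these 3 of 80 members, and 219 of the 49676 genes then tested. Basal keratinocyte sums of these groups overlapped, at 20227 to 26615 CPM in Nf1-KO uninjured skin, against 16235 to 22628 CPM in control uninjured skin.

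In injured skin the smallest p belonged to Il1f9, Il1f5 and Il20rb, all with lower values in Nf1-KO. Il1f9 had 27.3, 46.7 and 24.5 CPM in Nf1-KO injured skin, against 83.0, 126 and 111 CPM in control injured skin (log2 fold change -1.70, SE 0.41, adjusted p = 0.353, edgeR). Il1f5 had 121, 171 and 109.9 CPM in Nf1-KO injured skin, against 198, 275 and 249 CPM in control injured skin (log2 fold change -0.84, SE 0.22, adjusted p = 0.355, edgeR), and Il20rb had 44.4, 55.0 and 41.9 CPM in Nf1-KO injured skin, against 79.3, 80.5 and 67.6 CPM in control injured skin (log2 fold change -0.69, SE 0.20, adjusted p = 0.355, edgeR). None of the 3 overlapped between genotypes. Without Nf1-KO injured replicate 2, Il1f5 was called by edgeR (log2 -1.11), beside 89 genes among all. With no count filter beyond 1 count, edgeR called 6 of 80 members, all lower in Nf1-KO, namely Il1f9, Il1f5, Il1a, Il18, Il20ra and Il22ra2. It then called 410 of 49676 genes tested, 69.2% of them higher in Nf1-KO.

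Summed levels of 2 keratinocyte marker lists differed between the same groups. Basal markers summed to 7988 to 11108 CPM in Nf1-KO injured skin, against 13108 to 14527 CPM in control injured skin, and differentiating keratinocyte markers to 12531 to 13992 CPM in Nf1-KO injured skin, against 18045 to 25526 CPM in control injured skin. Neither pair of ranges overlapped, while no marker of either list was called or at 0, and wound-activated markers, at 6969.6 to 8806 CPM in Nf1-KO injured skin, against 7514 to 17509.7 CPM in control injured skin, did overlap. Marker by marker, Krt5 and Krt14 were also separate, while Krt15, Itga6, Itgb4, Col17a1, Trp63, Lamb3 and Dst overlapped. Among the differentiating markers Krt1, Lor, Sbsn and Krtdap were separate, and the others overlapped. The part of the keratinocytes in the lower Il1f9, Il1f5 and Il20rb values was not tested. Il3ra had higher values in Nf1-KO injured skin, at 21.5, 12.3 and 36.1 CPM, against 11.3, 10.5 and 9.89 CPM in control injured skin, without overlap and without a call (log2 fold change 1.14, SE 0.35, adjusted p = 0.355, edgeR).

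**Figure D5:**
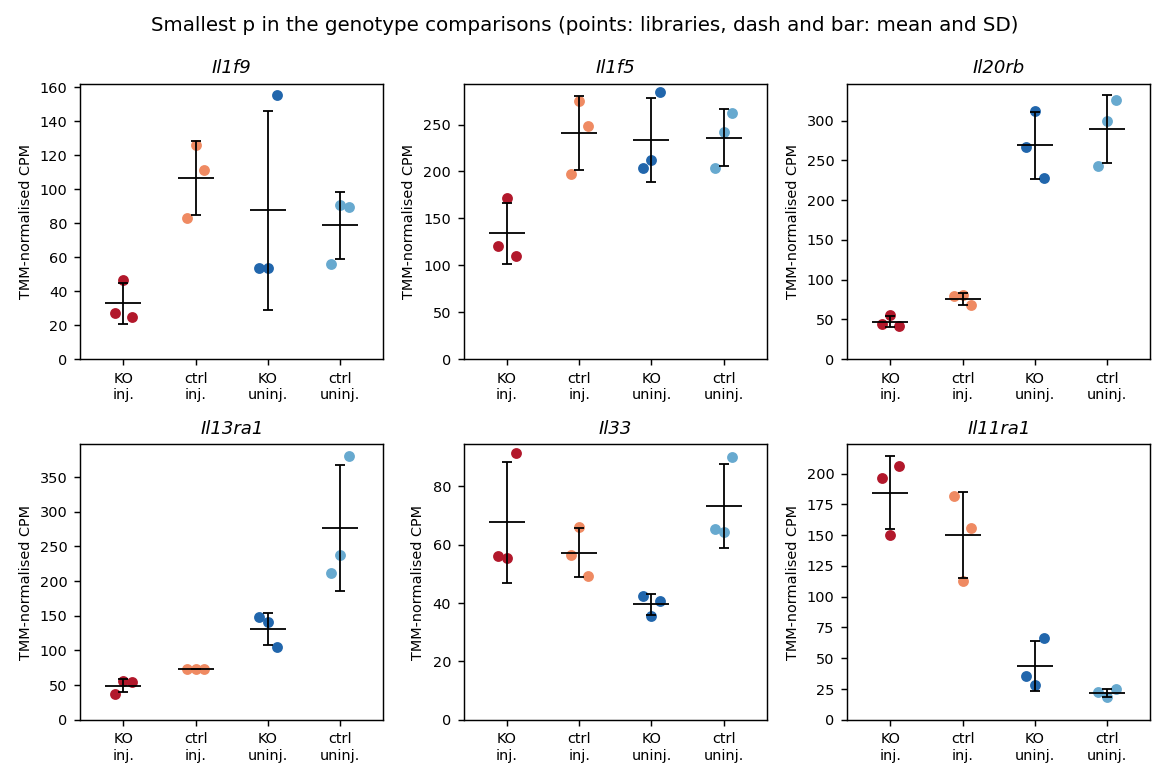
TMM-normalised CPM in each library for the 6 members with the smallest p between genotypes, with mean and SD as dash and bar, for Nf1-KO injured, control injured, Nf1-KO uninjured and control uninjured skin. Il1f9, Il1f5 and Il20rb lay lower in all Nf1-KO injured libraries than in all control injured ones, and Il13ra1 and Il33 lower in all Nf1-KO uninjured libraries than in all control uninjured ones, yet edgeR called 0 of the 6, whereas DESeq2 called 5, all but Il11ra1.

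The injury responses differed most, by p, for Il33, Il1f9 and Il1f5. The Nf1-KO minus control difference of log2 fold changes was 1.13 for Il33 (SE 0.31, adjusted p = 0.442, edgeR), -1.85 for Il1f9 (SE 0.57, adjusted p = 0.442) and -0.83 for Il1f5 (SE 0.31, adjusted p = 0.442). With no count filter beyond 1 count, Il1f9 was the 1 member of 80 called in this comparison, beside 236 of 49676 genes.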

How the data were processed

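RNA was extracted from whole skin, amplified with a Smart-Seq v4 kit and sequenced, per the labels' protocols. The files hold raw read counts per Ensembl gene as deposited by the authors. STAR 2.5.2b, SAMtools, HTSeq 0.5.3, DESeq2, HOMER and mm10 are named in the submitters' processing notes; which step each served is not stated there, nor which annotation or strand option the counting used. Of 53379 gene IDs, 53274 matched GENCODE M21 (GRCm38), and 1 further column of per-sample values was not used.

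Counts of all 12 libraries were fitted in 1 model of 4 group means with edgeR 4.0.16 (R 4.3.3; TMM scaling, filterByExpr with a minimum count of 10, robust quasi-likelihood F test, 2-sided), which tested 23635 genes. Every adjusted p in the text is Benjamini-Hochberg over those genes unless another tool or filter is named, and a call is an adjusted p under 0.05. The fit was tested on simulated data. Levels are TMM-normalised CPM, given per kb of exon where genes are compared. Intervals and floors cover counting error only.

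Named with values are the members called in any comparison, the 3 with the smallest p where none was, and the highest per kb in each role. The members, gene lists and tests were chosen with earlier results of these data known. Alternatives were median-of-ratios scaling, no filter beyond 1 count, a filter of 2 CPM in 3 libraries, a replicate block, groups compared alone, limma voom (3.58.1), DESeq2 (1.42.0), a ribosomal RNA-like covariate, removal of control uninjured replicates 1 and 2, and removal of each library in turn. Promoter windows came from RefSeq.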

Additional observations from a re-analysis of the deposited data

How the results depend on the processing

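Among the 78 results for named members, no injury call reversed its direction under any of the 21 alternatives that tested the member. For the other results, which the main fit did not call, a reversal was counted only where an alternative called the member, and none was found. In control skin, 33 members were called for injury, 20 with the ribosomal RNA-like covariate and 21 without control uninjured replicates 1 and 2. Leaving out 1 library at a time gave 29 to 39 members in control skin and 29 to 38 in Nf1-KO skin. Calls kept under all the alternatives that tested the member numbered 17 of 33 in control skin and 23 of 36 in Nf1-KO skin. An alternative whose filter removed the member was not counted as a lost call. Between genotypes in uninjured skin, 3 of 80 members were called with no filter beyond 1 count and 2 of 80 by DESeq2, and 0 with any library left out. In injured skin, 6 were called with no filter and 3 by DESeq2, and leaving out 1 library gave 0 to 1, the 1 being without Nf1-KO injured replicate 2. The difference of injury responses gave 1 member with no filter and 0 with any library left out. With the replicate number as a block, 33 members were called for injury in Nf1-KO skin and 32 in control skin, and 0 in each of the other comparisons. The block ended the Nf1-KO calls of Il17d (adjusted p = 0.0581, edgeR), Il1rapl2 (adjusted p = 0.0531) and Il1r1 (adjusted p = 0.0550) and the control call of Il9r (adjusted p = 0.0620). The correlation of same-numbered deviations from the group means ran from -0.42 to 0.38. Differently numbered libraries were not correlated for comparison, so these values do not show whether the numbers pair the samples. Median-of-ratios scaling moved the all-gene median log2 fold change in Nf1-KO skin to -0.20, beside -0.09, and called 36 members there. The 3 libraries a group and the low counts noted above limit what could be called; the cause of each lost call was not tested.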

Other observations

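A few members held much of the interleukin and receptor signal, and which ones differed between groups. In Nf1-KO injured skin Il11ra1 took 12.2% of the members' counts, Il1f5 9.0%, Il6st 8.60%, Il17rc 7.10% and Il4ra 5.07%. In control injured skin Il1f5 took 13.0%, Il11ra1 7.81%, Il17rc 7.70%, Il6st 6.43% and Il1f9 5.80%. In Nf1-KO uninjured skin Il17rc took 11.3%, Il20rb 10.5%, Il1f5 9.01%, Il1r2 7.69% and Il1rn 5.80%. In control uninjured skin Il20rb took 10.1%, Il13ra1 9.88%, Il17rc 9.01%, Il1f5 8.23% and Il1rn 7.08%. These shares are not corrected for exon length and were not tested.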
